A study of Mus musculus with 6 samples.

Results

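The genes described here encode the ligands, receptors, Smads, secreted antagonists and Id targets of the TGF-beta and BMP pathways, in cultured mouse dorsal root ganglion (DRG) neurons with and without HC-HA/PTX3, a complex of heavy chain, hyaluronan and pentraxin 3 purified from human amniotic membrane. Members were taken by symbol (Bmp, Bmpr, Tgfb, Tgfbr, Smad, Acvr, Acvrl, Inh, Gdf without Gdf15, Id1 to Id4, and secreted antagonists such as Nog, Grem1, Chrd and Fst), with at least 10 counts in at least 3 of the 6 count files. Of the 35976 genes in the files, 58 have such a symbol and 47 of those reach the counts. The 11 below it are Inhbc, Inhbe, Gdf1, Gdf2, Gdf3, Gdf5, Gdf6, Gdf7, Bmp8b, Bmp10 and Bmp15. Gdf2 had 0 counts in all 6 samples, which allows up to 3 counts in each, for counting error only. Gdf1 was also listed at 0, but it shares exons with Cers1 on the same strand, so its 0 sets no limit on its RNA. Nearest to the limit on the inside was Chrd, with 9, 18 and 7 counts in the vehicle samples and 10, 15 and 5 in the HC-HA/PTX3 samples, and on the outside Gdf3, with 3, 30 and 5 and 1, 21 and 0.

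Bulk RNA-seq was done on 3 vehicle samples and 3 samples given HC-HA/PTX3 at 15 µg/mL. Both groups are lumbar DRG cells of wildtype C57BL/6 mice of both sexes, 2 to 3 months old, plated for 24 h in supplemented medium with 10% fetal bovine serum and then treated for 24 h. The vehicle libraries held 42516054, 42617496 and 54117547 counts and the HC-HA/PTX3 libraries 37998071, 37434266 and 38420247. The labels do not state whether replicates are separate cultures or animals, so every p-value speaks only for these 6 samples. Fits with replicate number as a block set aside the differences between replicate numbers. Their p-values rest on the spread of the differences within same-numbered samples, not on the whole spread between samples. Values by sample are given in the order of replicates 1, 2 and 3, as CPM, read counts scaled for library size with edgeR's trimmed mean of M-values (TMM).

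The neuron label was checked against 10 neuron markers, all of which had counts in all samples. Their summed level was 6417, 5503 and 6091 CPM with vehicle and 6745, 5945 and 6794 CPM with HC-HA/PTX3, and Tubb3, a neuronal tubulin, was the most abundant. RNA of other cells was present as well. Satellite glia markers summed to 2654, 1601 and 650.3 CPM with vehicle and 2501, 1688 and 674 CPM with HC-HA/PTX3, and fibroblast markers to 2289, 2219.6 and 912 CPM and 1302, 1454 and 319.7 CPM. In both groups replicate 3 held the lowest of both sums. These are mixed cultures by their RNA, and no level below is assigned to a cell type.

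TGF-beta family ligands are secreted dimers that bring type I and type II receptor kinases together on the cell surface. The type I receptor then phosphorylates receptor Smads, which join Smad4 and enter the nucleus, where TGF-beta and activin signals pass mainly through Smad2 and Smad3 and BMP signals mainly through Smad1, Smad5 and Smad9. In sensory ganglia the family acts in neuron specification, in glia and in the response to nerve injury, and Id genes are classic targets of the BMP branch.

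The comparison asks which of these genes differ in RNA level after 24 h of HC-HA/PTX3. Bmp4 and Bmp7 RNA was lower with HC-HA/PTX3 and passed the call, the 3 TGF-beta ligands were lower by less than the fold threshold, and the type I receptor gene Acvrl1 was higher by less than it. A gene was called where the edgeR quasi-likelihood fit, with replicate number as a block, gave a Benjamini-Hochberg adjusted p under 0.05 and an absolute log2 fold change above 0.5. All 47 members were among the 18277 genes tested. Of them 2, or 4.26%, were called, against 1591 genes, or 8.70%, of all tested; both members were lower, against 984 genes called lower, 5.38% of all, and 0 were higher, against 607 genes, 3.32%. At an adjusted p under 0.05 and any fold change there were 8 members (17.0%), 7 of them lower and 1 higher, against 19.2% of all genes, 11.5% lower and 7.67% higher. The 6 samples separated into groups that did not overlap in 6 members (12.8%), against 18.0% of all genes: 4 were below vehicle in every HC-HA/PTX3 sample (Tgfb3, Id2 and Bmp2k among them, against 8.57% of all genes) and 2 above (Smad4 and Inha, against 9.44%). The median log2 fold change of the members was -0.12, against -0.0067 for all genes tested. Within same-numbered samples, 20 members (42.6%) were lower with HC-HA/PTX3 in all 3 pairs and 6 (12.8%) were higher in all 3, against 28.7% and 25.2% of all genes.

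The calls rest on the replicate block. Fitted without it, edgeR called 0 of 18277 genes (0%) and 0 members; 2089 genes, or 11.4%, and 2 members, Tgfb3 and Id2, had an unadjusted p under 0.05. Without the block DESeq2 called 343 genes and limma-voom 0, and neither called a member. Leaving out a replicate number from both groups also moved the calls: 1 member was called without replicate 1, 7 without replicate 2 and 0 without replicate 3, and all-gene calls were 878, 1571 and 1261.

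**Figure D1:**
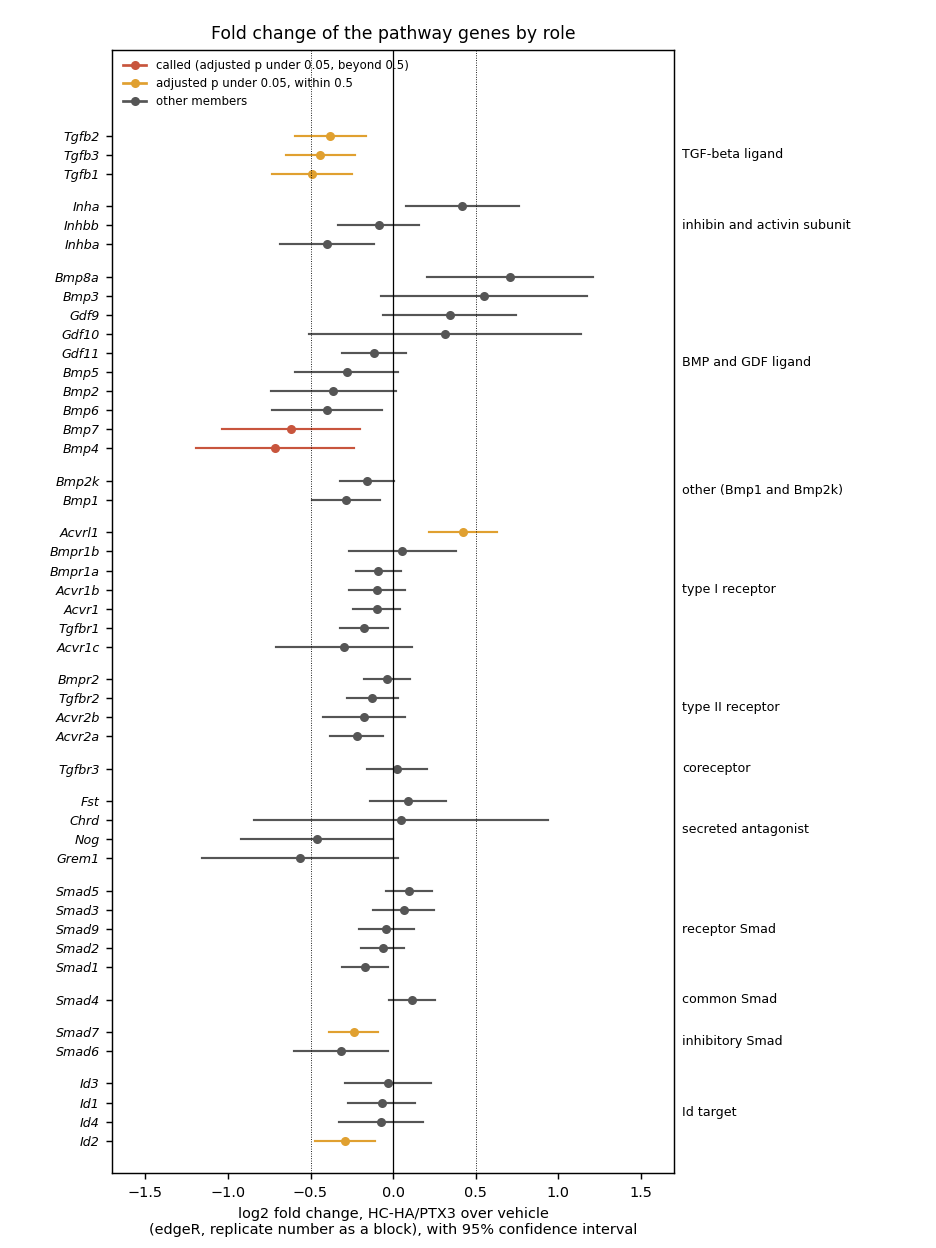
Log2 fold change (HC-HA/PTX3 over vehicle, horizontal axis) with 95% confidence interval for the members shown, grouped by role; red marks genes called, amber an adjusted p under 0.05 within the dotted fold limits of 0.5, and grey the others. Bmp4 and Bmp7 are the 2 red points; the amber points are Tgfb1, Tgfb2, Tgfb3, Id2, Smad7 and Acvrl1.

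Same-numbered samples of the groups stood apart together. Each member's log2 CPM was compared with its own group mean, and the vehicle and HC-HA/PTX3 samples of replicate 1 lay on the same side of it for 40 of 47 members (85.1%), those of replicate 2 for 36 (76.6%) and those of replicate 3 for 42 (89.4%). Over all genes tested the shares were 69.9%, 70.8% and 77.2%. The median absolute deviation of the members was largest in replicate 3, at 0.27 log2 units with vehicle and 0.29 with HC-HA/PTX3. Grem1, a secreted BMP antagonist, was 1.83 above the vehicle mean in replicate 3 and 1.12 above the HC-HA/PTX3 mean. Nog, which encodes the antagonist Noggin, deviated by 1.37 and 0.97, and Id3, a BMP target, by -0.55 and -0.92. In all 3 genes the shift had the same sign in both groups.

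**Figure D2:**
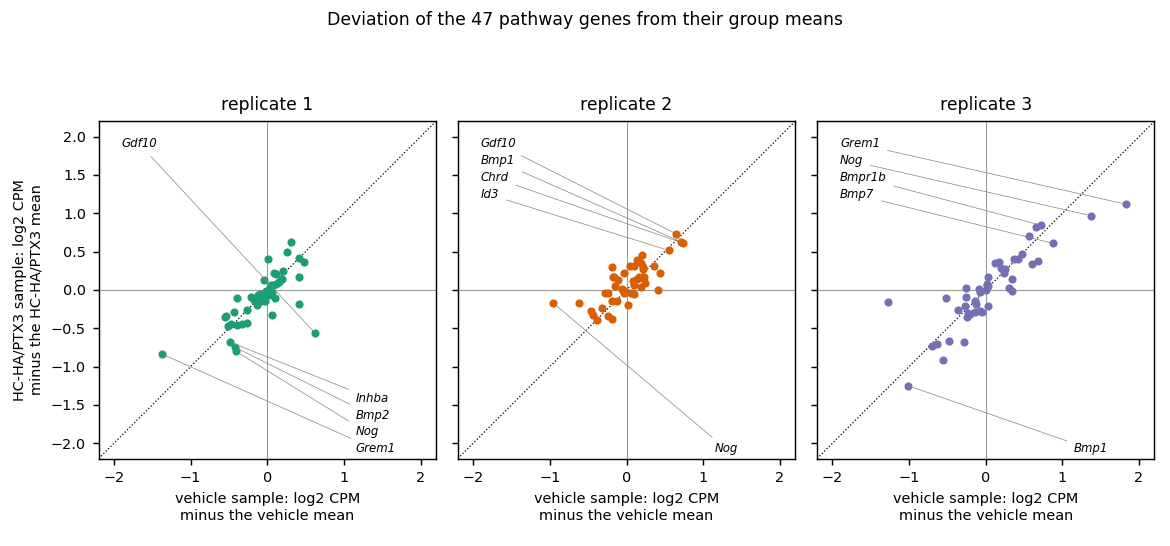
Deviation of each member's log2 CPM from its group mean in the vehicle sample (horizontal axis, log2 units) and in the HC-HA/PTX3 sample (vertical axis, log2 units) of the same replicate number, 1 panel per replicate and 1 point per member. In replicate 3, 42 of 47 members lie on the same side of 0 in both samples.

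RefSeq's promoter table (GRCm38.p6) held 38 windows for 32 of the 47 members, each the 250 bases before a transcription start. The windows were searched on both strands for CAGAC, the letters of a Smad-binding element (GTCTG on the other strand), and for GGCGCC, a GC-rich motif bound by BMP-activated Smads, which is its own reverse complement; neither motif contains the other. CAGAC or GTCTG was in 15 of the 38 member windows (39.5%), against 42.2% of all 32851 windows, and GGCGCC in 10 (26.3%), against 9.59%. Shown here are 5 windows that meet no annotated exon: of the ligand genes Tgfb1, Bmp4 and Bmp8a, of Grem1, and of Atoh8, a BMP-responsive transcription factor gene. They stand for ligands with lower values with HC-HA/PTX3, a ligand with higher values, the antagonist that stood farthest apart in replicate 3 and a called response gene. Capitals mark a motif. They lie at chr7:25686752-25687001 on the plus strand and, on the minus strand, at chr14:46390670-46390919, chr4:123343253-123343502, chr2:113758649-113758898 and chr6:72235578-72235827. Read 5′ to 3′, GTCTG or CAGAC begins at position -132 from the start in Bmp8a and -219 in Grem1, whose window also holds GGCGCC at -78, and the windows of Tgfb1, Bmp4 and Atoh8 hold neither set of letters. A match is a run of letters and was not tested for binding.
Tgfb1: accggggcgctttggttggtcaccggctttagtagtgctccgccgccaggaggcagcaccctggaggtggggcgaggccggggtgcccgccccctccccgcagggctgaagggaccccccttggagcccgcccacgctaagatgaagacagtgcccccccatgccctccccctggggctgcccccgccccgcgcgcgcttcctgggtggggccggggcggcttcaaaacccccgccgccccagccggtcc
Bmp4: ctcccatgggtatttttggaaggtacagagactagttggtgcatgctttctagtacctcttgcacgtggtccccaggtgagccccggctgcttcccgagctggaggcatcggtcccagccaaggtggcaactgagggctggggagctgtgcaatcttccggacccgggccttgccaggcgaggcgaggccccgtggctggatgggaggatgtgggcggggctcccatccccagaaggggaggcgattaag
Bmp8a: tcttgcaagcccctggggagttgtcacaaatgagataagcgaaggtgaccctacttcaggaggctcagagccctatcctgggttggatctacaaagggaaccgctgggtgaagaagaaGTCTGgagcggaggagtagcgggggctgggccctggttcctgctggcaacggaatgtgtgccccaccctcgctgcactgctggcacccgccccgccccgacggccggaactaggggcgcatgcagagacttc
Grem1: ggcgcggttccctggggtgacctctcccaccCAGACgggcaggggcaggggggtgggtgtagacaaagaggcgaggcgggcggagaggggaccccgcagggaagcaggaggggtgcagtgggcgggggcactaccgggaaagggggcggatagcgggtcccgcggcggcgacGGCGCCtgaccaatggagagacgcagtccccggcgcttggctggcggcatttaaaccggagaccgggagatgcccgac
Atoh8: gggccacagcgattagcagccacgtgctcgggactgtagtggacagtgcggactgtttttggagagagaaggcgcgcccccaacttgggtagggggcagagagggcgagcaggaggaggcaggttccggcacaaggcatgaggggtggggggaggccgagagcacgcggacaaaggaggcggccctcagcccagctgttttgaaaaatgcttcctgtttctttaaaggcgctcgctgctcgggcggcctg

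The 3 TGF-beta ligand genes were all lower in all 3 same-numbered pairs, and none was called by edgeR, DESeq2 or limma-voom, though all 3 had an unadjusted edgeR p under 0.05. Tgfb1 (ENSMUSG00000002603.15; chromosome 7, 25687002 to 25705077, mm10), the ligand most studied in fibrosis and immune control, measured 71.7, 77.8 and 55.5 CPM with vehicle and 55.7, 65.7 and 30.01 CPM with HC-HA/PTX3. Replicate 3 was lowest in each group, and the vehicle value of replicate 3 lay within the HC-HA/PTX3 range. Its log2 fold change was -0.49 (SE 0.11, edgeR adjusted p 0.0119). Tgfb3 (ENSMUSG00000021253.7; chromosome 12, 86056745 to 86079041), a ligand of palate and heart development, measured 51.0, 47.3 and 46.9 CPM with vehicle and 37.2, 41.4 and 29.3 CPM with HC-HA/PTX3. Every HC-HA/PTX3 sample of Tgfb3 was below every vehicle sample. Tgfb3 had a log2 fold change of -0.44 (SE 0.094, edgeR adjusted p 0.0101). Tgfb2, which has a role in heart and eye development, measured 35.7, 36.8 and 28.4 CPM and 23.9, 33.7 and 20.9 CPM, with overlapping groups and a log2 fold change of -0.38 (edgeR adjusted p 0.0219). In samples of mixed cells, fewer cells of a type and less RNA per cell cannot be told apart.

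Whether Tgfb1 passed depended on single replicates: without replicate 1 its log2 fold change was -0.56 (edgeR adjusted p 0.0389) and without replicate 2 -0.63 (edgeR adjusted p 0.0251), both past the call, and without replicate 3 -0.29 (edgeR adjusted p 0.0509). With all genes of at least 1 count the log2 fold change of Tgfb1 was -0.51 (edgeR adjusted p 1.04e-07), also past the call. Tgfb3 was past the call without replicate 2, at -0.57 (edgeR adjusted p 0.0161), and not without replicate 1 or 3, at edgeR adjusted p 0.0622 and 0.0634. Tgfb2 likewise passed without replicate 2, at -0.51 (edgeR adjusted p 0.0233), and had an edgeR adjusted p of 0.164 without replicate 1 and 0.0758 without replicate 3. In CPM per kilobase of exon (per kb), the scale on which genes can be compared, the mean vehicle levels were 14.3 ± 0.660 for Tgfb3, 13.6 ± 2.28 for Tgfb1 and 5.81 ± 0.788 for Tgfb2 (SD, n = 3). Tgfb3 and Tgfb1 do not differ beyond their spread, and Tgfb2 was below both.

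Of the 3 inhibin and activin subunit genes with enough counts, none was called by edgeR, DESeq2 or limma-voom, and 2 had an unadjusted edgeR p under 0.05. Inhba, whose product dimerizes to activin A, measured 48.1, 58.8 and 108 CPM with vehicle and 31.8, 62.9 and 66.4 CPM with HC-HA/PTX3. The vehicle sample of replicate 3 was the highest and the HC-HA/PTX3 sample of replicate 1 the lowest, and the groups overlapped. Its log2 fold change was -0.40 (95% confidence interval -0.69 to -0.11, edgeR adjusted p 0.0537), lower in 2 of 3 pairs, and without replicate 2 it was -0.65 (edgeR adjusted p 0.00712), past the call. Inha, the alpha subunit that turns an activin into an inhibin, measured 2.87, 3.40 and 3.84 CPM and 4.2, 3.88 and 5.48 CPM. All HC-HA/PTX3 samples of Inha were above all vehicle samples, with a log2 fold change of 0.42 (edgeR adjusted p 0.0824). Inhbb, the activin B subunit, had a log2 fold change of -0.087.

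Among the 10 BMP and GDF ligand genes, 2 were called lower (20%, against 8.70% of all genes called and 5.38% called lower) and 8 did not pass. A log2 fold change below 0 was fitted in 6 of the 10 (60%, against 51.1% of all genes) and above 0 in 4. Bmp4, a ligand of dorsal and mesenchymal patterning, had 48, 63 and 149 raw counts with vehicle and 27, 29 and 71 with HC-HA/PTX3, or 1.2, 1.47 and 2.66 CPM and 0.727, 0.765 and 1.80 CPM. Replicate 3 was highest in each group, the other HC-HA/PTX3 samples were below every vehicle sample, and the groups overlapped through HC-HA/PTX3 replicate 3. Bmp4 was lower in all 3 pairs, with a log2 fold change of -0.72 (SE 0.22, 95% confidence interval -1.2 to -0.24, edgeR adjusted p 0.0428). Bmp7, a ligand of kidney and skeletal development, had 112, 94 and 351 raw counts with vehicle and 61, 75 and 135 with HC-HA/PTX3, or 2.80, 2.19 and 6.27 CPM and 1.64, 1.98 and 3.43 CPM. Again replicate 3 was highest in each group, and the groups overlapped. Its log2 ratios within pairs were -0.77, -0.15 and -0.87, so replicate 2 showed the smallest difference. The fitted log2 fold change of Bmp7 was -0.62 (SE 0.19, edgeR adjusted p 0.0451).

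Both calls sit close to the threshold and change with 1 replicate. The edgeR adjusted p of Bmp4 was 0.132, 0.149 and 0.104 without replicates 1, 2 and 3, at log2 fold changes of -0.72, -0.63 and -0.82. For Bmp7 the edgeR adjusted p was 0.20, 0.0344 and 0.271, at -0.55, -0.83 and -0.44, so its call held without replicate 2 and was lost without either of the others. With DESeq2 and the same block neither gene was called (DESeq2 adjusted p 0.159 for Bmp4 and 0.101 for Bmp7), and with limma-voom the adjusted p was 0.0505 and 0.0348. With upper-quartile scaling both were lost: the log2 fold change of Bmp4 was -0.68 (edgeR adjusted p 0.0542) and the log2 fold change of Bmp7 -0.59 (edgeR adjusted p 0.0562). Raw library sizes ended the call of Bmp7 (edgeR adjusted p 0.0501). Bmp4 and Bmp7 stayed called with all genes of at least 1 count and with at least 10 counts in every sample. They were also called with ComBat-seq and limma-trend, at -0.70 for Bmp4 (limma adjusted p 0.00253) and -0.53 for Bmp7 (limma adjusted p 0.0290). Exons of Bmp4 overlap those of Gm15217, and those of Bmp6 overlap Txndc5; the strand setting of the counts is not stated, so both genes' counts are uncertain to that extent.

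Bmp8a, a ligand of the BMP8 pair with roles in the germ line and in brown fat, had 30, 64 and 68 raw counts with vehicle and 53, 69 and 92 with HC-HA/PTX3, or 0.749, 1.49 and 1.21 CPM and 1.43, 1.82 and 2.34 CPM. The vehicle sample of replicate 1 was lowest, and the value of vehicle replicate 2 lay above that of HC-HA/PTX3 replicate 1. Bmp8a was higher in all 3 pairs, at a log2 fold change of 0.71 (SE 0.23), and was not called (edgeR adjusted p 0.0522); without replicates 1, 2 and 3 the edgeR adjusted p was 0.191, 0.0567 and 0.212. It was called higher under 4 alternatives: the log2 fold change of Bmp8a was 0.69 with all genes of at least 1 count (edgeR adjusted p 0.0149), 0.71 with at least 10 counts in every sample (edgeR adjusted p 0.0471), 0.74 with upper-quartile scaling (edgeR adjusted p 0.0492) and 0.65 with ComBat-seq and limma-trend (adjusted p 0.0124). Over all its alternatives the adjusted p of Bmp8a (edgeR, DESeq2 or limma) ran from 0.0124 to 0.479. Gdf11, a ligand of axial patterning, had the highest level of the 10 per kb, 5.70 ± 0.796 CPM per kb with vehicle (SD, n = 3). Its samples measured 24.8, 25.2 and 19.4 CPM with vehicle and 24.6, 23.3 and 16.6 CPM with HC-HA/PTX3, with replicate 3 lowest in both groups and a log2 fold change of -0.12. The others, none of them called, had these log2 fold changes: Bmp2 at -0.36, Bmp3 at 0.55, Bmp5 at -0.28, Bmp6 at -0.40, Gdf9 at 0.34 and Gdf10 at 0.31. Gdf10 had within-pair log2 ratios of -0.89, 0.44 and 1.58, and its value without replicate 3 was -0.12.

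**Figure D3:**
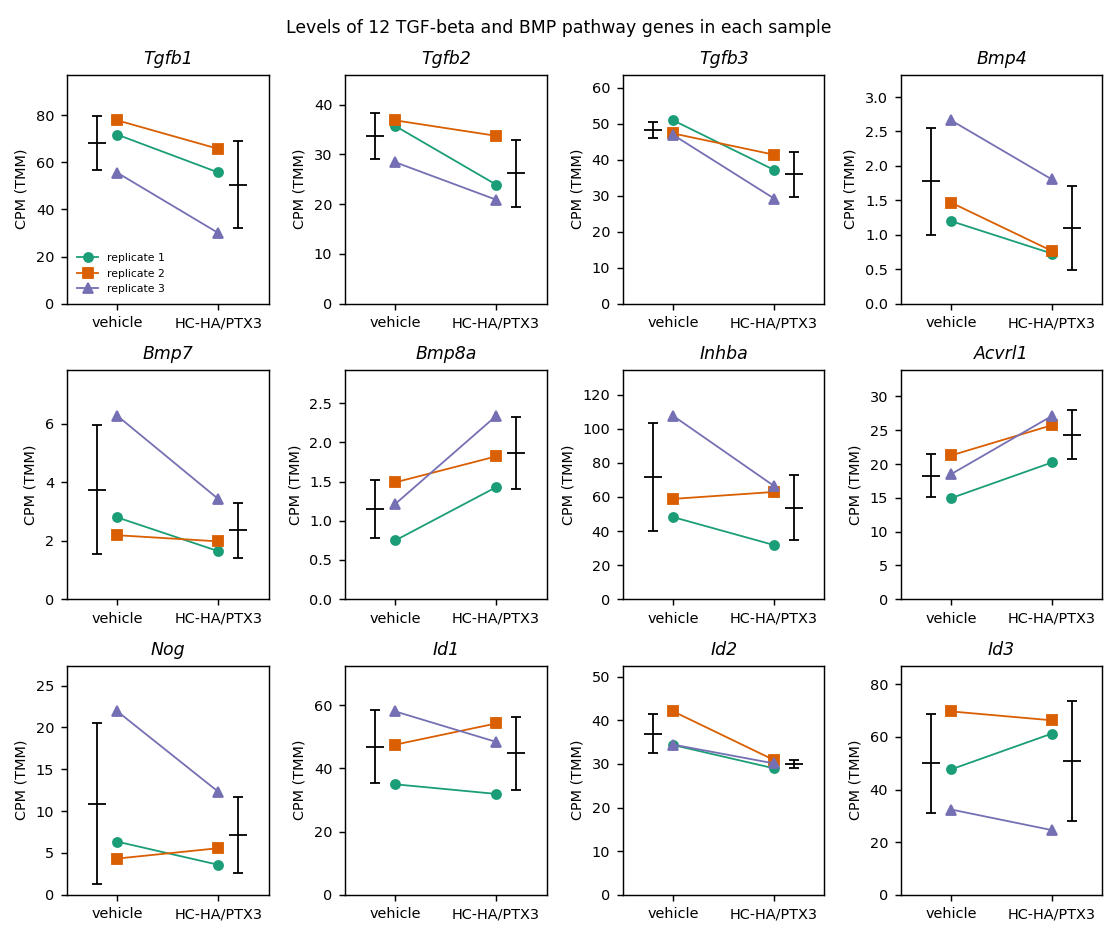
Level (CPM, vertical axis of each panel) of 12 genes in each sample, with the vehicle and HC-HA/PTX3 samples of a replicate number joined by a line; black marks show the group mean and SD (n = 3). Bmp4 and Bmp7 are lower with HC-HA/PTX3 in each of the 3 pairs while replicate 3 is the highest in both groups.

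Of 12 receptor and coreceptor genes 0 were called by edgeR (3 at an unadjusted p under 0.05) and 0 by DESeq2 or limma-voom with the block, and the median log2 fold change of the 12 was -0.098. Acvrl1 (ENSMUSG00000000530.16; chromosome 15, 101128522 to 101145336), the type I receptor ALK1 that binds BMP9 and BMP10 on endothelium, measured 15.0, 21.3 and 18.5 CPM with vehicle and 20.2, 25.7 and 27.1 CPM with HC-HA/PTX3. It was higher in each pair, and the groups overlapped because vehicle replicate 2 was above HC-HA/PTX3 replicate 1. The log2 fold change of Acvrl1 was 0.42 (SE 0.092, edgeR adjusted p 0.0115), and the edgeR adjusted p was 0.0578, 0.0323 and 0.0512 without replicates 1, 2 and 3. Genes for its main ligands, Gdf2 (BMP9) and Bmp10, had too few counts to be members.

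Bmpr1a, the type I receptor that binds BMP2 and BMP4, was the highest of the type I receptors at 29.2 ± 5.88 CPM per kb with vehicle (SD, n = 3). Its samples measured 202, 211 and 143 CPM with vehicle and 184, 192 and 143 CPM with HC-HA/PTX3. Replicate 3 was lowest in each group, and the log2 fold change was -0.089. Bmpr2, the type II receptor for BMPs, was the highest type II receptor at 36.8 ± 3.15 CPM per kb (SD, n = 3), with 717, 603 and 666 CPM with vehicle and 677, 579 and 679 CPM with HC-HA/PTX3. The groups of Bmpr2 overlapped, at a log2 fold change of -0.037. Acvr2a, an activin type II receptor, had the largest difference of the type II genes, with 63.2, 56.8 and 45.3 CPM and 55.6, 45.4 and 40.7 CPM. It was lower in all 3 pairs, at -0.22 (edgeR adjusted p 0.0541); its exons overlap those of Orc4, so its counts are uncertain without the strand setting. Tgfbr3, the coreceptor betaglycan, measured 95, 92.9 and 57.0 CPM with vehicle and 114, 91.0 and 50.7 CPM with HC-HA/PTX3, lowest in replicate 3 of each group. Its log2 fold change was 0.024 over all samples and -0.096 without replicate 1. The TGF-beta receptors proper, Tgfbr1 and Tgfbr2, had log2 fold changes of -0.18 and -0.13, and the remaining receptors ranged from -0.30 in Acvr1c, whose exons overlap Gm13544, to 0.056 in Bmpr1b.

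None of the 5 secreted antagonists was called by edgeR, DESeq2 or limma-voom, and 2 had an unadjusted edgeR p under 0.05. Nog, which keeps BMPs from their receptors, had the highest mean of them at 6.41 ± 5.68 CPM per kb with vehicle (SD, n = 3), with 6.34, 4.33 and 21.9 CPM with vehicle and 3.58, 5.57 and 12.3 CPM with HC-HA/PTX3. Replicate 3 was far above the others in each group, and the rank rests on it, since Fst was higher per kb in vehicle replicates 1 and 2. The log2 fold change of Nog was -0.46 (edgeR adjusted p 0.148), with within-pair values of -0.82, 0.36 and -0.83; without replicate 2 it was -0.83 (edgeR adjusted p 0.0124), past the call. Grem1 measured 0.524, 1.02 and 5.20 CPM and 0.593, 0.897 and 2.44 CPM, again highest in replicate 3. Grem1 had a log2 fold change of -0.56 (edgeR adjusted p 0.170) and, without replicate 3, -0.019. Fst, which encodes the activin-binding follistatin, had 0.091, and Chrd, which encodes Chordin and overlaps Thpo, had 0.050 with an SE of 0.40.

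Of the 8 Smad genes, 0 were called by edgeR (3 at an unadjusted p under 0.05), DESeq2 or limma-voom. Smad7 (ENSMUSG00000025880.11; chromosome 18), an inhibitor that is itself induced by the pathway, measured 40.8, 62.4 and 78.2 CPM with vehicle and 35.8, 51.6 and 65.6 CPM with HC-HA/PTX3. Replicate 1 was lowest and replicate 3 highest in both groups, and Smad7 was lower in each pair. Its log2 fold change was -0.24 (SE 0.068, edgeR adjusted p 0.0336), and the edgeR adjusted p was 0.0701, 0.147 and 0.180 without replicates 1, 2 and 3. Smad6, the inhibitor directed mainly at BMP signals, measured 10.1, 14.7 and 17.4 CPM and 9.03, 13.7 and 10.9 CPM. Its largest difference was in replicate 3, and the log2 fold change was -0.31 (edgeR adjusted p 0.117). Smad1, a BMP receptor Smad, had the highest receptor Smad level at 19.3 ± 3.69 CPM per kb (SD, n = 3), with 125, 96.2 and 142 CPM with vehicle and 104, 89.7 and 128 CPM with HC-HA/PTX3. It was lower in each pair, at a log2 fold change of -0.17 (edgeR adjusted p 0.0842). Smad4, the partner shared by both branches, measured 111, 106 and 109.6 CPM with vehicle and 112, 117 and 123 CPM with HC-HA/PTX3. Every HC-HA/PTX3 sample of Smad4 was above every vehicle sample, by little: its log2 fold change was 0.11 (edgeR adjusted p 0.230). Smad2, Smad3, Smad5 and Smad9 had log2 fold changes of -0.064, 0.063, 0.095 and -0.040.

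The Id genes encode proteins that bind basic helix-loop-helix factors and keep them off DNA, and 0 of 4 were called by edgeR (1 at an unadjusted p under 0.05), DESeq2 or limma-voom. Id2 (ENSMUSG00000020644.9; chromosome 12, 25093799 to 25097140) measured 34.3, 42.0 and 34.4 CPM with vehicle and 29.0, 30.9 and 30.1 CPM with HC-HA/PTX3. All its HC-HA/PTX3 samples were below all its vehicle samples. The log2 fold change of Id2 was -0.29 (SE 0.082, edgeR adjusted p 0.0316), within the fold threshold, and the edgeR adjusted p was 0.0860, 0.184 and 0.0544 without replicates 1, 2 and 3. Id1, with the highest mean per kb of all members at 40.3 ± 9.95 CPM per kb (SD, n = 3), measured 34.9, 47.5 and 58.0 CPM and 31.9, 54.2 and 48.3 CPM. Its pairs went both ways, at a log2 fold change of -0.068. Id3 measured 47.6, 69.7 and 32.4 CPM with vehicle and 61.3, 66.3 and 24.6 CPM with HC-HA/PTX3. Replicate 3 was lowest in both groups, and the log2 fold change of Id3 was -0.031, or 0.00073 with upper-quartile scaling, the other sign. Id4, whose exons overlap A330033J07Rik, measured 31.3, 25.4 and 33.8 CPM and 22.7, 27.5 and 36.6 CPM, lower in 1 of 3 pairs, at a log2 fold change of -0.076.

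The symbol rule also takes a pair of genes outside the pathway's core, neither of them called by edgeR (1 at an unadjusted p under 0.05), DESeq2 or limma-voom. Bmp1, a metalloproteinase that cleaves procollagen and Chordin, measured 139, 183 and 55.2 CPM with vehicle and 141, 142 and 38.6 CPM with HC-HA/PTX3. Replicate 3 was far below the others in both groups, and the log2 fold change was -0.28 (edgeR adjusted p 0.0557); without replicate 1 it was -0.44 (edgeR adjusted p 0.0141). Bmp2k, a kinase gene whose exons overlap Paqr3, was below in all HC-HA/PTX3 samples at -0.16 (edgeR adjusted p 0.168). Without both genes 2 of 45 members were called and the median log2 fold change was -0.099.

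Per kb, genes can be set side by side, and the highest levels were those of Id, receptor and Smad genes. The highest vehicle means were Id1 at 40.3, Bmpr2 at 36.8, Smad4 at 29.3, Bmpr1a at 29.2 and Id3 at 27.9 CPM per kb, against 14.3 for Tgfb3, the highest ligand mean, and 0.790, 0.933 and 0.479 for Bmp4, Bmp7 and Bmp8a. Id1 and Bmpr2 do not differ beyond their spread over replicates, and Bmpr2 was above Id1 in vehicle replicate 1. Nor do Smad4 and Bmpr1a differ beyond theirs. The median of the 47 members was 6.41 CPM per kb with vehicle, against 4.52 for the tested genes with an exon length.

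**Figure D4:**
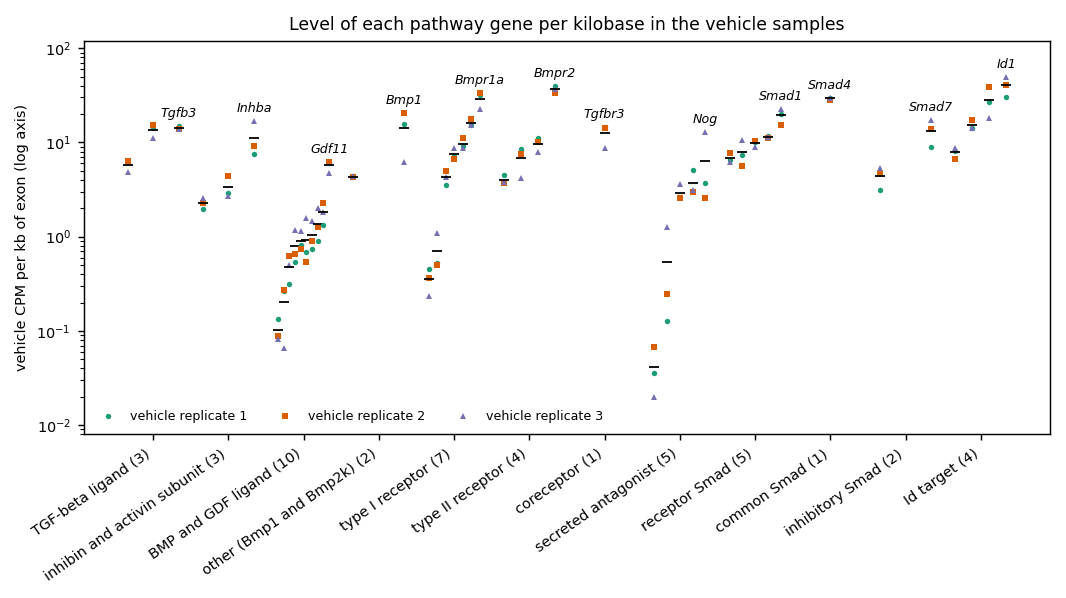
Vehicle level (CPM per kb of exon, log axis) of each member by role, with a point for each of the 3 vehicle samples and a dash for their mean. Id1, at 40.3 CPM per kb, has the highest mean, within the spread of Bmpr2. The means of the called ligands Bmp4 and Bmp7 lie below 1 CPM per kb.

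Of 15 tested genes known to respond to TGF-beta, 9 were called lower and 1 higher (66.7% called in all, against 8.70% of all genes), with a median log2 fold change of -0.56, against -0.0067 for all. DESeq2 called 5 lower and limma-voom 9, and without replicates 1, 2 and 3 edgeR called 6, 8 and 6 lower. Col1a1, a chain of type I collagen, measured 642, 628 and 265 CPM with vehicle and 211, 302 and 56.4 CPM with HC-HA/PTX3. It was lower in each pair, with a fitted change of -1.62 (SE 0.17, edgeR adjusted p 5.47e-04), the largest of the list. Ctgf, a matricellular protein gene, measured 165, 247 and 449.8 CPM with vehicle and 70.4, 226 and 159 CPM with HC-HA/PTX3. Its within-pair log2 ratios were -1.23, -0.13 and -1.5, and it fell by 0.95 (SE 0.20, edgeR adjusted p 0.00890). Cdkn1a, which encodes the cell cycle inhibitor p21 and also answers to p53, measured 159, 198 and 323 CPM with vehicle and 316, 302 and 532 CPM with HC-HA/PTX3. It rose in each pair, by 0.77 (SE 0.077, edgeR adjusted p 4.91e-04).

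Also called lower in the list were the collagen gene Col1a2 at -1.11, the contractile genes Acta2 and Tagln at -1.03 and -0.99, the matrix genes Postn and Fn1 at -0.68 and -0.51, and the transcription factor gene Snai2 at -0.56. Exons of Fn1 overlap Apol7d and those of Tagln overlap Pcsk7. Col1a1, Col1a2, Acta2 and Cdkn1a stayed called without any 1 replicate. Without replicate 3, Fn1 and Postn were within the fold threshold, at -0.37 and -0.40, and without replicate 1 the edgeR adjusted p was 0.0697 for Ctgf and 0.0594 for Tagln. Snai2 passed in none of the 3, with edgeR adjusted p of 0.0679, 0.104 and 0.0831. Col1a1, Col1a2 and Acta2 also stand in the fibroblast or mural marker lists. Without them 6 of 12 genes were called lower and 1 higher (58.3% called, against 8.70% of all genes). Of the 12, 10 had a log2 fold change below 0, and the median was -0.45. In the same samples the sum of 9 cycling markers was 793, 584 and 286 CPM with vehicle, led by Mki67, and 269.9, 297 and 58.6 CPM with HC-HA/PTX3, and that of the fibroblast markers was lower in each pair too; their part in these values was not tested. Promoter windows were held for 7 genes of the response list. They are Acta2, Col1a2 and Postn, called lower, Cdkn1a, called higher, and Cdkn2b, Ltbp2 and Tgfbi, not called. CAGAC or GTCTG was in 8 of their 9 windows (88.9%), against 42.2% of all windows. Each window of Cdkn1a held it, and a window of Postn did not.

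Genes known to respond to BMP, a list that includes the Id genes and the inhibitory Smads, had 1 of 10 tested called lower by edgeR (10.0%, against 5.38% of all genes; 5 at an unadjusted p under 0.05), 1 by limma-voom and 0 by DESeq2, with a median log2 fold change of -0.27. Atoh8 measured 4.62, 6.89 and 7.0 CPM with vehicle and 3.72, 5.09 and 4.14 CPM with HC-HA/PTX3. Replicate 1 was lowest in each group, and vehicle replicate 1 lay within the HC-HA/PTX3 range. Atoh8 fell by 0.51 (SE 0.14, edgeR adjusted p 0.0341), and passed in none of the fits without 1 replicate, at edgeR adjusted p 0.0876, 0.102 and 0.187. Hey1, a transcription factor gene also driven by Notch, had a value of -0.0023; the log2 fold change of Hey1 had the other sign with upper-quartile scaling, at 0.030, with raw library sizes, at 0.013, and in other fits. Promoter windows were held for 7 genes of the list, Msx2 among them, which was not tested for a difference. GGCGCC was in 2 of the 7 windows (28.6%, against 9.59% of all windows) and CAGAC or GTCTG in 1 (14.3%, against 42.2%). Whether the TGF-beta and BMP lists differ from each other was not tested.

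**Figure D5:**
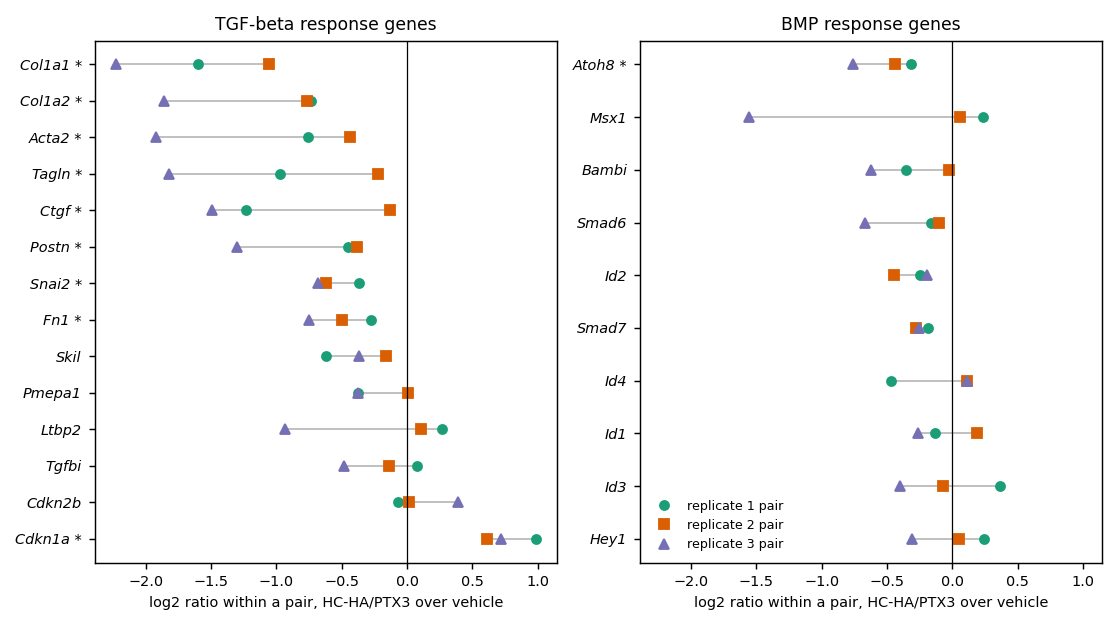
Log2 ratio of HC-HA/PTX3 to vehicle within each same-numbered pair (horizontal axis) for genes known to respond to TGF-beta and to BMP, 1 point per replicate, with an asterisk on genes called. For Col1a1, Col1a2, Acta2 and Tagln all 3 points lie below 0, and the point of replicate 3 lies lowest.

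Of the genes that modify the pathway 4 of 50 tested were called (8%, against 8.70% of all genes; 1 by DESeq2, and 2 without replicate 1 or 3), all lower, with a median log2 fold change of -0.12. Among 13 genes of ligand latency and activation, 2 were called lower (15.4%, against 5.38% of all genes). A log2 fold change below 0 was fitted in 7 of them (53.8%, against 51.1% of all genes) and above 0 in 6. Thbs1, whose product thrombospondin 1 can release latent TGF-beta, measured 267, 446 and 744 CPM with vehicle and 175, 356 and 314 CPM with HC-HA/PTX3. Vehicle replicate 3 was the highest, and the log2 fold change was -0.73 (SE 0.14, edgeR adjusted p 0.00559). Fbn1, the fibrillin that holds latent complexes in the matrix, measured 319, 438 and 263 CPM and 218, 363 and 107 CPM. It was lower in each pair, at -0.70 (SE 0.15, edgeR adjusted p 0.00996). Without replicate 3 both were within the fold threshold, at -0.45 and -0.39. Lrrc32, a docking protein for latent TGF-beta, had -0.46 and was not called.

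Among 10 other extracellular inhibitors 2 were called lower (20%, against 5.38% of all genes). A log2 fold change below 0 was fitted in 7 of them (70%, against 51.1% of all genes) and above 0 in 3. Fstl3, a follistatin relative that binds activin and overlaps Prss57, measured 47.3, 32.4 and 14.4 CPM with vehicle and 28.2, 24.3 and 10.8 CPM with HC-HA/PTX3. It was lower in each pair, at -0.53 (edgeR adjusted p 0.00461), and not called without replicate 1 (edgeR adjusted p 0.0619). Sostdc1, a BMP and Wnt antagonist, measured 71.0, 31.6 and 3.14 CPM and 51.2, 20.0 and 2.59 CPM. Replicate 3 was far below the others in both groups, and Sostdc1 was at -0.50 (edgeR adjusted p 0.00570), with an edgeR adjusted p of 0.0769 without replicate 1 and 0.0598 without replicate 2. No gene was called by edgeR, DESeq2 or limma-voom among 18 intracellular regulators, 6 coreceptors and decoys or 3 ligand relatives, of which 9, 3 and 0 had an unadjusted edgeR p under 0.05; without replicate 2, edgeR called 1 of the coreceptors and decoys. Skil, a Smad corepressor that TGF-beta induces, was below in all HC-HA/PTX3 samples, at 105, 109 and 120.2 CPM with vehicle and 68.4, 97.3 and 93.3 CPM with HC-HA/PTX3. Skil had a log2 fold change of -0.38 (edgeR adjusted p 0.0115). Tgif1, a corepressor gene, was higher in all 3 pairs with groups that did not overlap, at 0.34 (edgeR adjusted p 0.0163), within the fold threshold. Its relative Tgif2, whose exons overlap 5430405H02Rik, had -0.34 (edgeR adjusted p 0.104). The BMP coreceptor gene Rgma, whose exons overlap A730056A06Rik, had -0.47, the decoy receptor gene Bambi -0.34, and the ligand genes Lefty1 and Amh -0.56 and 0.19.

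Markers of dividing cells were lower with HC-HA/PTX3, and markers of other cell types were called in part; of all genes tested 5.38% were called lower and 3.32% higher. All 9 cycling markers were called lower, with a median log2 fold change of -1.55, and lower in each pair. Of 9 fibroblast markers 3 were called lower (Col1a1, Col1a2 and Col3a1; median -0.31), with Col3a1 the most abundant, while Dcn and Pdgfra, which also define these cells, had -0.092 and -0.25. Of 7 mural cell markers 1 was called lower, Acta2, and the list, led by Rgs5, summed to 508, 613 and 453 CPM with vehicle and 503, 583 and 305 CPM with HC-HA/PTX3. Of 9 macrophage markers 3 were called lower (C1qa, C1qb and Cd163; 1 without replicate 1 and 1 without replicate 3), and the list, led by Lyz2, summed to 80.4, 106 and 88.4 CPM with vehicle and 73.1, 106 and 63.7 CPM with HC-HA/PTX3.

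The 8 Schwann cell markers, led by Pmp22, had -0.35 as their median log2 fold change and summed to 1077, 787 and 607 CPM with vehicle and 923, 670.4 and 571 CPM with HC-HA/PTX3. Of 10 satellite glia markers, led by Apoe, 0 were called by edgeR (5 at an unadjusted p under 0.05), DESeq2 or limma-voom, and 0 of 7 endothelial markers, led by Cdh5, were called by any of the 3 tools (0 at an unadjusted edgeR p under 0.05). The endothelial list summed to 257, 275 and 310.0 CPM with vehicle and 264, 311 and 283 CPM with HC-HA/PTX3. Neuron markers had 2 of 10 called higher (20%, against 3.32% of all genes), the neuropeptide gene Tac1 at 1.0 and the receptor gene Mrgprd at 0.62, with a median of 0.16. No marker of these lists was at 0 in all samples. The 9 cycling, 3 fibroblast and 2 neuron marker calls kept their number without any 1 replicate. The part of cell composition or division in the pathway results was not tested.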

How the data were processed

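RNA-seq counts of 6 samples were read from the deposited count files, 1 per sample, in which the authors give raw read counts per gene (featureCounts, mm10). Alignment was by HISAT2 per the methods, while the file headers point to STAR. Counts were analysed in R 4.3.3 with edgeR 4.0.16 (TMM, filterByExpr, quasi-likelihood test, replicate number as a block), with Benjamini-Hochberg adjustment over 18277 genes. The paper's methods fit a batch term without listing batches, and the labels share replicate numbers, so these stand in for it. Deviations from the group mean over all genes correlated at 0.631, 0.536 and 0.774 between same-numbered samples and at -0.613 to 0.148 between others, with 0.1 set as the limit for using the block. Since deviations cancel out within a group, high correlations between same-numbered samples lower the others by construction. Vehicle replicate 2 and HC-HA/PTX3 replicate 1, at 0.148, also passed the limit. Genes are not independent replicates.

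Members and gene lists were chosen with earlier results of these data known. Values by sample are given for called members, Bmp4, Bmp7, Bmp8a, Id1 to Id4, and in each role the member with the highest level per kb and the one with the largest fold change. Of the other pathway lists, called genes are named, or the 2 with the largest fold changes. Tgfb2, Smad7, Lrrc32, Tgif1, Dcn and Pdgfra were chosen after their values were seen. Exon lengths are from GENCODE and promoters from RefSeq. The fit was also run on simulated data, but the outcome is not given here and no statement above rests on it. Alternatives were no block, other filters and scalings, raw library sizes, DESeq2 1.42.0, limma-voom (limma 3.58.1), ComBat-seq (sva 3.50.0), no fold threshold and leaving out each replicate number. DESeq2 and limma-voom without the block were added after seeing the data. No samples were duplicates (chi-square per degree of freedom 31.4 to 108 within groups). Depth was 37434266 to 54117547 counts per sample.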

Additional observations from a re-analysis of the deposited data

How the results depend on the processing

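Without the replicate block, 0 genes, 0 members and 0 TGF-beta response genes were called and 0 members had an adjusted p under 0.05 (edgeR; 2089 genes and 2 members at an unadjusted p under 0.05); DESeq2 without the block called 343 genes and limma-voom 0, with 0 members and 0 response genes lower in both. Against 2 members called and 8 at an adjusted p under 0.05, the numbers were 4 and 14 with all genes of at least 1 count, 3 and 9 with at least 10 counts in every sample, 1 (Bmp8a, not Bmp4 or Bmp7) and 5 with upper-quartile scaling, 1 (Bmp4) and 6 with raw library sizes, 0 and 7 with DESeq2, 1 (Bmp7) and 7 with limma-voom, and 3 and 21 with ComBat-seq. With no fold threshold 8 members and 3505 genes were called. TGF-beta response genes called lower numbered 9 in the main fit, with either other filter and with limma-voom. They numbered 8 with upper-quartile scaling, raw library sizes or ComBat-seq, 5 with DESeq2 and 10 with no fold threshold. Leaving out each replicate number gave 0 to 7 members called, 0 to 8 at an adjusted p under 0.05, 6 to 8 response genes and 878 to 1571 genes. The sign changed for the log2 fold change of Id3 (-0.23 without replicate 1, 0.16 without replicate 3, 0.023 without the block in edgeR and in DESeq2, 0.00073 with upper-quartile scaling) and the log2 fold change of Hey1 (0.029 without the block, 0.0021 with at least 10 counts in every sample, 0.030 with upper-quartile scaling, 0.013 with raw library sizes, 0.0045 with limma-voom, 0.023 with ComBat-seq, 0.027 without the block in DESeq2, 0.16 without replicate 3). With replicates left out in turn the lowest and highest log2 fold changes differed in sign for Chrd (-0.038 without 1, 0.074 without 3), Id4 (-0.17 without 2, 0.12 without 1), Smad9 (-0.098 without 2, 0.012 without 1), Tgfbr3 (-0.096 without 1, 0.13 without 3), Fst (-0.029 without 2, 0.16 without 1 and 3), Inhbb (-0.16 without 3, 0.024 without 2), Smad3 (-0.026 without 2, 0.15 without 3), Bmpr1b (-0.0013 without 3, 0.11 without 1), Gdf10 (-0.12 without 3, 0.90 without 1), Id1 (-0.20 without 2, 0.049 without 3), Cdkn2b (-0.011 without 3, 0.21 without 1), Ltbp2 (-0.41 without 1, 0.20 without 3) and Msx1 (-0.70 without 1, 0.16 without 3). The cause was not tested. At this depth no difference was detectable in Chrd, which had 5 to 18 counts per sample and a 95% confidence interval of -0.84 to 0.94 for its log2 fold change.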
